A study of Homo sapiens with 2 samples.

Results

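Cadherins are membrane proteins that hold neighbouring cells together through calcium-dependent contacts. The platform's annotation gave 38 genes of this kind, out of 19775 genes with a probe set of their own, by a symbol of CDH, PCDH, DSG or DSC followed by digits only. They had 85 probe sets, and 23 of the genes had more than 1. Of the 38 genes, 11 (28.9%) had a signal above background on at least 1 array, against 53.2% of all 19775 genes. Of the 11, the protocadherin PCDH7 passed 2-fold, and it was 3.76-fold lower on the silenced array. Among all 10514 genes measured 3.07% were lower and 3.31% higher by 2-fold or more, so 1 call among 11 genes is near the background.

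The samples were galectin-3 silenced AGS cells, made with a small interfering RNA against galectin-3, and AGS control cells. AGS is a human epithelial line from an adenocarcinoma of the stomach. There were 2 one-colour Affymetrix arrays, 1 for silenced cells and 1 for control cells. The sources used here do not say how the control cells were treated, how long after transfection RNA was taken, or how many cultures each RNA came from. AGS cells are known for lacking E-cadherin protein, which limits them as a model of cadherin adhesion. With 1 array per group no difference below has a replicate check, so there is no test and no p-value, and precision is limited by having so few arrays. In bulk RNA fewer cells of a type and less RNA per cell cannot be told apart.

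Classical cadherins such as CDH1 (E-cadherin) form adherens junctions, and their tails bind beta-catenin and p120-catenin, with alpha-catenin as the link to actin. Desmogleins and desmocollins form desmosomes, where plakoglobin, plakophilins and desmoplakin tie them to keratin filaments. Non-clustered protocadherins have longer extracellular regions and mostly do not bind catenins. In gastric epithelium CDH1 is known as a tumour suppressor, and CDH17 (LI-cadherin) as an intestinal gene that appears in many gastric cancers.

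Values are MAS5 signals in arbitrary linear units. The background floor of each array was the 95th percentile of 135 probe sets of olfactory receptor genes and pseudogenes, 109.5 on the silenced array and 138.4 on the control array. Each gene took its value from the brightest of its probe sets by mean log2 signal, and a log2 ratio is silenced over control. Where only 1 array was above its floor, the other signal was raised to its own floor and the fold is a lower bound on size. LGALS3, the gene of galectin-3, had a signal of 2699.8 on the silenced array and 20206.3 on the control array, a log2 ratio of -2.90. All 6 epithelial markers were above the floor on both arrays, with summed signals of 112007.1 on the silenced array and 91579 on the control array. Among them CLDN4, a tight junction claudin, was 2.12-fold higher. Markers of fibroblasts were above the floor for 1 of 6 genes, of endothelium for 1 of 4 on 1 array only, and of leukocytes, squamous epithelium and neurons for 0 of 3, 0 of 2 and 0 of 3. The fibroblast gene was COL1A1, a collagen chain, with 1502 on the silenced array and 816.3 on the control array. Its 2 other probe sets above the floor gave log2 ratios of 0.53 and -0.55.

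**Figure D1:**
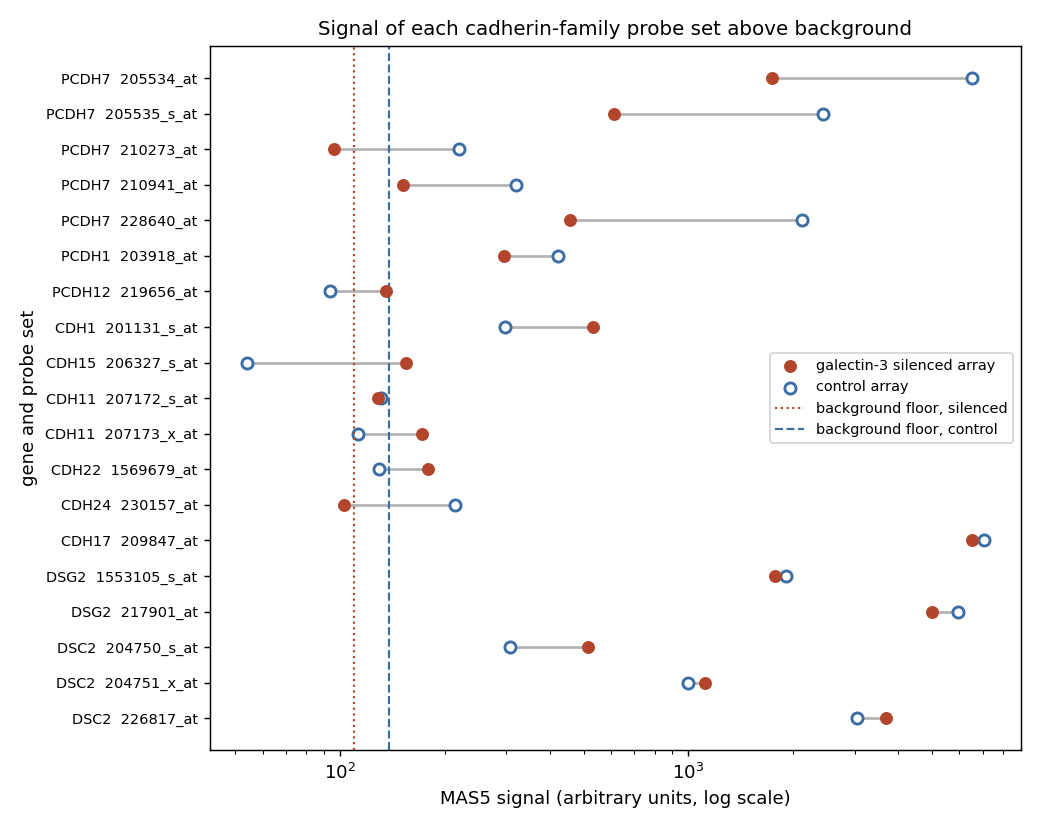
MAS5 signal (arbitrary units, log axis) of the 19 cadherin-family probe sets above the floor on at least 1 array, 1 row per probe set. Filled points are the silenced array, open points the control array, and vertical lines the background floors of 109.5 (silenced) and 138.4 (control). All 5 PCDH7 rows have the silenced point to the left of the control point, with the smallest gaps in the rows of lowest signal.

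PCDH7 is a delta-type protocadherin that mediates homophilic adhesion and whose cytoplasmic part can bind protein phosphatase 1. It was lower on every one of its 5 probe sets. The probe set that stands for the gene had a signal of 1735.8 on the silenced array and 6532.6 on the control array, so the silenced signal was 26.6% of the control signal. A second had 611.7 on the silenced array and 2430.5 on the control array, which is 3.97-fold lower. The next had 457.6 on the silenced array and 2119.4 on the control array, which is 4.63-fold lower. The remaining pair went the same way by less. One had 151.1 on the silenced array and 318.9 on the control array, which is 2.11-fold lower. The other had 95.9 on the silenced array, under the floor, and 219.6 on the control array, so it was at least 2-fold lower. In the annotation this pair carries different source sequence records from the first and second probe sets, which share 1 record. The sources used here do not say which stretch of the transcripts each probe set reads.

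The 4 PCDH7 probe sets that cleared both floors had a median log2 ratio of -1.95, with an SD of 0.50 between probe sets. Across 4728 genes with 2 or more such probe sets, the SD between probe sets of a gene was 0.32. These SDs compare probe sets within the same pair of RNAs, and hold no spread between cultures. Of 752 genes with at least 4 such probe sets, PCDH7 was the 1 gene for which all of them were at least 2-fold lower, and 4 genes had all of them at least 2-fold higher. The limit of 4 is the number of such probe sets that PCDH7 itself has, and genes with fewer could not enter. PCDH7 had already been picked by its ratio, so this count is a description and no separate check. By the probe set that stands for it, PCDH7 had the 20th lowest log2 ratio (-1.91) of the 10514 genes measured. Its log2 ratio ran from -2.15 to -1.68 over 14 alternative settings, all of them past 2-fold. Settings that change only the floor or the size limit could not move it, because both its signals lie far above the floors. Those settings are therefore no check of PCDH7.

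The upstream sequences of PCDH7, of PCDH1 (the other non-clustered protocadherin above the floor on both arrays) and of the desmosomal gene DSG2 are printed because they are what the RefSeq promoter table of GRCh38.p14 offers for measured members in the direction of PCDH7. Each is the 250 bases before the gene's start, written 5′ to 3′ on the gene's own strand. The PCDH7 stretch is chr4:30720119-30720368 on the plus strand, PCDH1 is chr5:141869628-141869877 on the minus strand, and DSG2 is chr18:31497927-31498176 on the plus strand. Capitals mark GAGAGA in PCDH7, and CACCTG or its reverse complement CAGGTG in PCDH1 and DSG2.
PCDH7: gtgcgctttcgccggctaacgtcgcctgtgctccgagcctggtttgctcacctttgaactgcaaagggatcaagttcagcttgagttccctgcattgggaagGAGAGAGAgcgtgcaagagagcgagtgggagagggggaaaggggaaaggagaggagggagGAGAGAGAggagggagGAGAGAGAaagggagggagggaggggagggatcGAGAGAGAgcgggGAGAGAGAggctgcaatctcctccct
PCDH1: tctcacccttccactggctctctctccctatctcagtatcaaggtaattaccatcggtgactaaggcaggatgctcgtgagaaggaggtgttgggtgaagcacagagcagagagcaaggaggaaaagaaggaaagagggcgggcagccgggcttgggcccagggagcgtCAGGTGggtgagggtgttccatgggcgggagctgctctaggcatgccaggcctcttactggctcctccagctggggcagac
DSG2: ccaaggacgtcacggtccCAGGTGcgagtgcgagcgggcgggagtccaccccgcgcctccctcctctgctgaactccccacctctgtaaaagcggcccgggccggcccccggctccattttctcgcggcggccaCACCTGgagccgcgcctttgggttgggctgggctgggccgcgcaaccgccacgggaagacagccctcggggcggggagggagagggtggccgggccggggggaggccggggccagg

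CACCTG is the E-box that repressors of the SNAI and ZEB families are known to bind, and it was searched on both strands. PCDH7 held 0 copies, PCDH1 had 1 copy whose first base lies 81 bases before the start, and DSG2 had 2 copies that begin 232 and 116 bases before it. The table held windows for 5 of the 11 measured members. CDH1, CDH11, CDH15, CDH17, CDH22 and CDH24 had none and were not searched. The members with windows that are not printed were DSC2, which had a ratio above 0, and PCDH12. DSC2 held 1 copy that begins 156 bases before one of its starts and 0 before the other, and PCDH12 held 0. Of all 35116 promoter windows of this length in the table, 17.5% hold a copy. The PCDH7 stretch is 69.2% purine on the gene's strand, against a median of 50% over all windows, and 0.698% of windows have a share at least as high. That figure was 14.1% for PCDH1, 23.2% for the DSC2 window with more purine, 36% for DSG2 and 93.3% for PCDH12. GAGAGA is made of purines only, so the purine share and the GAGAGA count below are not separate observations. GAGAGA, a string picked after the sequence was seen, occurs 10 times there with overlapping copies counted. Counted the same way on both strands it was found 2 times in PCDH1, 0 times in DSG2 and PCDH12, and 1 time and 0 times in the DSC2 windows, and 18.4% of all windows hold it on either strand. GGGCGG, the core of the GC box bound by SP1, was found 0 times in PCDH7 and 2 times each in PCDH1 and DSG2, and 42.6% of windows hold it on either strand. These matches describe letters in a window and say nothing about binding.

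Of the 11 members above the floor, 0 passed 2-fold upwards and 1 passed it downwards. Among all 10514 measured genes 3.31% passed 2-fold upwards and 3.07% downwards, so this count is no result about the family. With a limit of 1.5-fold, 1 member (CDH1) was higher and 2 (PCDH7 and CDH24) were lower, where 10.6% of all measured genes were higher and 10.4% lower. The median log2 ratio was -0.11 over the 11 genes and -0.18 over the 6 above the floor on both arrays, against -0.02 and -0.01 for all genes. The -0.11 includes bounds, and also CDH11 and PCDH12, which have no direction. The ratios entered for these 2 genes compare a silenced signal with the control floor and are not bounds. The -0.02 includes genes of both kinds too. These medians have no settled direction. The first was -0.10 with quantile normalization, 0.15 with a lowess curve, 0.08 with the hybridization controls set equal and -0.34 with the poly-A controls set equal, where the median of all genes was -0.01, 0.03, 0.17 and -0.25.

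**Figure D2:**
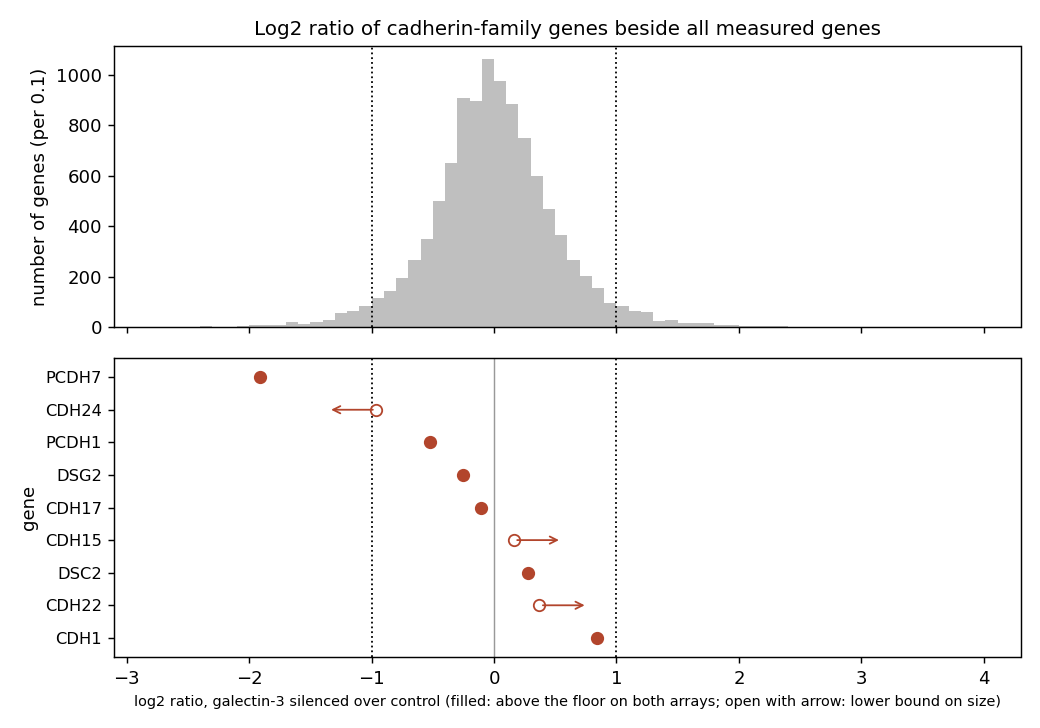
The upper panel counts all 10514 measured genes by log2 ratio of silenced over control in steps of 0.1, and the lower panel gives the 9 cadherin-family genes that have a direction. Filled points were above the floor on both arrays, open points with arrows are bounds, and dotted lines mark 2-fold. PCDH7 at -1.91 lies past the lower line, and CDH24 at -0.96 and CDH1 at 0.84 lie short of the lines.

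PCDH1, a protocadherin known from airway epithelium and as a hantavirus receptor, was the other non-clustered protocadherin with a full measurement. Its signal was 294.8 on the silenced array and 421.9 on the control array, a log2 ratio of -0.52. It is short of 2-fold, and its second probe set was below both floors. With the mean over all its probe sets and no floor the log2 ratio was 0.04. PCDH12, known from endothelium, had 135.4 on the silenced array, above the floor there, and 93.6 on the control array, under the floor there. Because the floors differ, this gives no direction.

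CDH1 had a signal of 532 on the silenced array and 298.1 on the control array, which is 1.78-fold higher and short of 2-fold. Its log2 ratio of 0.84 was exceeded by 5.12% of measured genes, and it ran from 0.47 with the mean of all its probe sets, and 0.60 with the poly-A controls set equal, to 1.02 with the hybridization controls set equal. Its second probe set was under the floor, with 51.5 on the silenced array and 48 on the control array, so the difference rests on 1 probe set. CDH17 had 6524.4 on the silenced array and 7045.9 on the control array, a log2 ratio of -0.11, which turned to 0.07 with the hybridization controls set equal. The CDH1 and CDH17 transcripts were therefore both detected, and neither passed 2-fold.

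The desmosomal cadherins above the floor were DSG2 and DSC2, the pair that simple epithelia are known to use. DSG2 had 5000.3 on the silenced array and 5928.8 on the control array, and its second probe set 1778.6 on the silenced array and 1905.5 on the control array. Their log2 ratios were -0.25 and -0.10. DSC2 had 3682.1 on the silenced array and 3041.5 on the control array, a log2 ratio of 0.28. Of its other probe sets, one had 514.8 on the silenced array and 308.3 on the control array, with a log2 ratio of 0.74. A cross-hybridising one had 1117.5 on the silenced array and 998.2 on the control array, with a log2 ratio of 0.16. All DSC2 probe sets above the floor were higher and both of DSG2 lower, each by less than 2-fold.

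The other members were near background. CDH24, a type II cadherin that binds catenins, had 102.3 on the silenced array, under the floor, and 213.5 on the control array, so it was at least 1.95-fold lower. It passed 2-fold in 4 of 13 alternatives that gave a value, among them the poly-A scaling, and a floor from the 107 olfactory receptor probe sets without pseudogenes. Its log2 ratio of -0.96 shrank to -0.63 with 1 floor for both arrays, and to -0.62 with the mean of all probe sets and no floor. The size of the bound therefore depends on where the floors are set. The second CDH24 probe set was under both floors, with 89.9 on the silenced array and 101.2 on the control array. CDH22, a type II cadherin known from brain, had 178.6 on the silenced array and 129.3 on the control array, under the floor, and was at least 1.29-fold higher. CDH15, the M-cadherin of muscle, had 154.8 on the silenced array and 54 on the control array, under the floor, and was at least 1.12-fold higher. Second probe sets were under both floors for CDH22 (10.6 silenced, 10.8 control) and CDH15 (5.3 silenced, 5.6 control). CDH11, a cadherin of mesenchymal cells, had 128.6 on the silenced array and 131.3 on the control array. The first is above its floor and the second below, which gives no direction. Its cross-hybridising probe set had 172 on the silenced array and 112.4 on the control array, and was at least 1.24-fold higher.

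**Figure D3:**
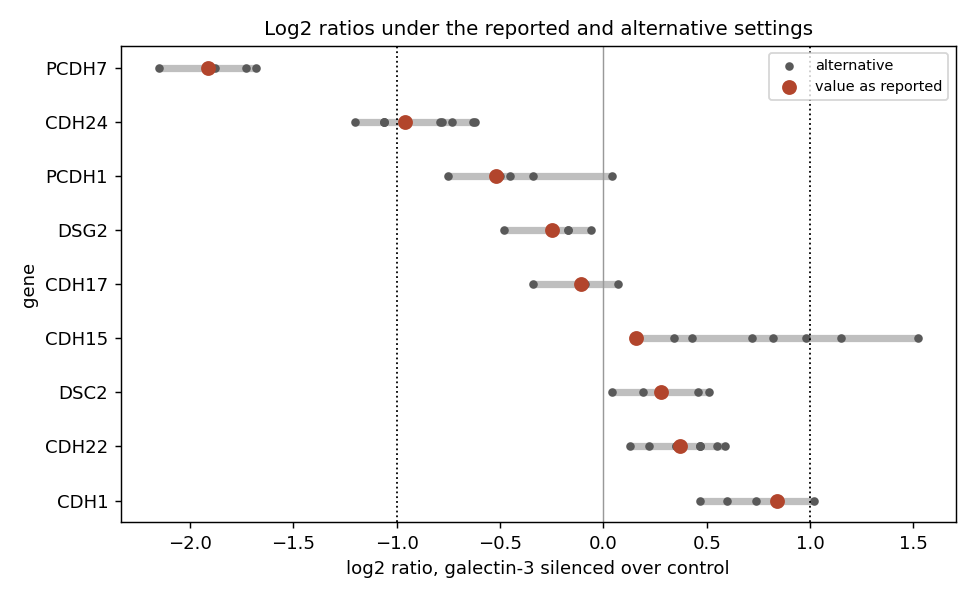
Log2 ratio of silenced over control for the 9 cadherin-family genes that have a direction, as reported (large points) and under the alternative settings that gave a value (small points), with grey bars from lowest to highest. Dotted lines mark 2-fold. PCDH7 stays between -2.15 and -1.68, and CDH15, which is near background, spreads from 0.15 to 1.52.

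The remaining 27 members were under the floor on both arrays with all their probe sets, and no fold is given for them. Their 58 probe sets had signals from 0.9 to 87.9 with a median of 10.9 on the silenced array, and from 0.6 to 127.4 with a median of 7.95 on the control array. The medians over all probe sets with 1 symbol were 93.7 on the silenced array and 93.2 on the control array. Among type I cadherins these were CDH2 (N-cadherin) and CDH3 (P-cadherin). N-cadherin, a usual marker of mesenchymal change, read 55.8 on the silenced array and 69.6 on the control array. Of the 13 type II cadherins 10 were under the floor: CDH5 of endothelium, CDH6, CDH7, CDH8, CDH9, CDH10, CDH12, CDH18, CDH19 and CDH20. Of 7 desmosomal cadherins 5 were under it: DSG1, DSG3, DSG4, DSC1 and DSC3, which are known from stratified epithelium and hair. Their 8 probe sets reached at most 60.6 on the silenced array and 49.2 on the control array. Of 9 protocadherins PCDH8, PCDH9, PCDH10, PCDH17, PCDH18 and PCDH19 were under it, as were CDH16 of kidney and the tip-link pair of the inner ear, CDH23 and PCDH15. CDH26 was the closest to the floor, with 87.9 on the silenced array and 127.4 on the control array.

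By place in the RefSeq table, 11 of the 38 genes lie on chromosome 18, among them all 7 desmosomal cadherins. DSG2 and DSC2 were the 2 of these 11 that were above the floor. Chromosome 16 holds 7 members, of which CDH1, CDH11 and CDH15 were above it, and chromosome 5 also holds 7, of which PCDH1 and PCDH12 were.

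Lists of genes that work with cadherins were counted beside the background of 3.31% of all measured genes higher and 3.07% lower by 2-fold or more. At that background a list of this length would hold few calls or none, so the counts of 0 below are near it and are no result about a list. Of 13 measured catenins and plaque proteins 0 passed 2-fold in either direction, with a median log2 ratio of 0.19, where all genes had -0.02. CTNNB1 (beta-catenin) had 4828.5 on the silenced array and 5034.2 on the control array, and CTNNA1 (alpha-catenin) 4206.5 on the silenced array and 4061.6 on the control array. The furthest from 0 were PPL (periplakin, which links keratins to the cell membrane), with 3491.7 on the silenced array and 1811.7 on the control array, and CTNNAL1, a relative of alpha-catenin, with 2923.2 on the silenced array and 5010.5 on the control array. Their log2 ratios were 0.95 and -0.78. The desmosomal plaque genes JUP (plakoglobin), PKP2 and DSP (desmoplakin) had log2 ratios of 0.50, 0.44 and 0.19. Not all of this list went that way. PKP3 had -0.11, with -0.64 on its second probe set, EVPL had -0.27, and PKP1 was under both floors.

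Of 12 repressors of epithelial cadherin on the array 9 were below both floors, and 0 of the 3 measured passed 2-fold. TCF3 had 908.2 on the silenced array and 1468.4 on the control array, a log2 ratio of -0.69, and its other probe sets that cleared both floors ran from -0.52 to 0.14. TCF4 had 157.8 on the silenced array and 81.8 on the control array, under the floor, and was at least 1.14-fold higher. Another TCF4 probe set had 223.7 on the silenced array and 46.5 on the control array, under the floor, a log2 ratio of at least 0.69. A further one, with 130.3 on the silenced array and 7.7 on the control array, gave no direction. SNAI1 had 124.8 on the silenced array and 21.7 on the control array, a bound with no direction because the floors differ. Of 9 measured epithelial and intestinal transcription factors 0 passed 2-fold, with a median of 0.06. GRHL1, an activator of epithelial junction genes, had 1799.3 on the silenced array and 1208.9 on the control array, and OVOL1, an epithelial zinc finger factor, 443.1 on the silenced array and 650.8 on the control array. The second GRHL1 probe set had 320 on the silenced array and 327.6 on the control array. CDX2, an intestinal factor known to activate CDH17, had 239.8 on the silenced array and 325.6 on the control array.

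Of 12 measured genes of cadherin processing and turnover 0 passed 2-fold, with a median of 0.00. The furthest from 0 were ADAM15, a membrane protease, with a log2 ratio of -0.52, and PSEN2, a gamma-secretase subunit, with -0.50. A second ADAM15 probe set gave -0.78, and other PSEN2 probe sets gave -0.23 and 0.09. ADAM10, the main sheddase of CDH1, had 5616.6 on the silenced array and 5961.7 on the control array. Of 5 nectins and nectin-like genes, which build adherens junctions beside cadherins, NECTIN3 was 2.36-fold lower. It had 312.7 on the silenced array and 736.6 on the control array, while its second probe set had 262.9 on the silenced array and 337.3 on the control array, a log2 ratio of -0.36. Of 8 measured genes in the list of other cadherin superfamily members 0 passed 2-fold, with a median of -0.17. CELSR2, a planar polarity cadherin, had 381 on the silenced array and 716.2 on the control array, and PCDHB14, a clustered protocadherin, 193.5 on the silenced array and 301.8 on the control array. Their log2 ratios were -0.91 and -0.64, and a second CELSR2 probe set gave -0.39.

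**Figure D4:**
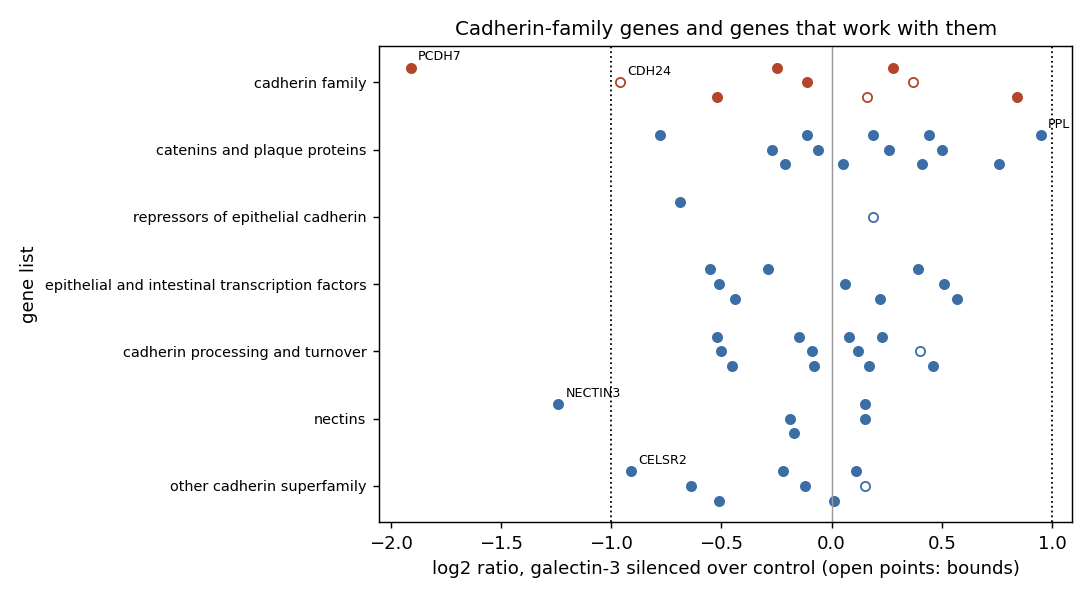
Log2 ratio of silenced over control for the cadherin-family genes (top row) and for 6 lists of genes that work with them or resemble them, 1 point per measured gene that has a direction. Open points are bounds, dotted lines mark 2-fold and the genes furthest from 0 are named. PCDH7 and NECTIN3 are the genes past 2-fold, both lower.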

How the data were processed

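Total RNA was extracted with Trizol and labelled as biotin cRNA for Affymetrix arrays, 1 for each group, per the labels' protocols. What the authors deposited is a linear intensity per probe set, and the submitters' processing notes name MAS5. The sources used here give no version, scaling target or filter. Both arrays had a 2% trimmed mean of 500.07, so the deposited scaling was kept, and a change in the total RNA of a cell would not show.

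Of 54675 probe sets, 41097 carry 1 gene symbol in the platform's annotation, 1801 carry several and 11777 none, and the last 2 kinds named no gene. All 38 members were matched by gene identifier to the RefSeq table with the symbol unchanged. Where a gene had another probe set, its cross-hybridising _x_at probe sets did not stand for it. A gene was called by size alone, from a log2 ratio of 1 up or -1 down. The text names LGALS3, every member above the floor, and in each other list the members past 2-fold or, where none passed, the 2 with the largest ratios. Any other gene was named after its value was seen. The members and lists were chosen with earlier results of these data known. There were 13 alternatives planned and 1 added after the data were seen. The procedure was tested on simulated data. Analyses used Python 3.11.15, pandas and statsmodels.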

Additional observations from a re-analysis of the deposited data

How the results depend on the processing

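No paired analysis was possible because each group has 1 array, and no replicate could be left out. Of 120 values for 9 members under 14 alternatives, 111 moved by less than 0.32, the SD between probe sets of a gene, and 9 moved by more. A change of floor alone moves no ratio of a gene far above it, and the 1.5-fold rule moves no ratio at all. Part of the 111 was therefore fixed in advance. PCDH7 was at least 2-fold lower in all 14, though the settings of floor and size limit could not alter it. At least 2-fold higher, or 1.5-fold under that rule, were 1 member with the hybridization controls set equal (CDH1), 1 with the array median as floor (CDH15), 1 with the 1.5-fold rule (CDH1), 9 without a floor and 7 with the mean of all probe sets and no floor, against 0 as reported. At least 2-fold lower, or 1.5-fold under that rule, were 2 members (CDH24 and PCDH7) with the poly-A controls set equal, the array median as floor, the 1.5-fold rule or the floor without pseudogenes. There were 8 without a floor and 7 with the mean of all probe sets, against 1. Without a floor 12.5% of all genes were at least 2-fold higher and 12.4% lower. Members counted as above the floor were 6 with a 2 times higher floor and 38 in the 3 settings with no floor, against 11. They were 9 with 1 floor for both arrays, 13 with the floor without pseudogenes and 14 with the array median as floor. Without probe sets of the _s_at and _x_at kinds they were 8, and CDH1 had no value there. In the 6 lists of other genes, cell type markers left out, 1 gene passed as reported, 2 with the hybridization and 3 with the poly-A controls set equal, 3 with an offset of 50, 24 in each of the other 2 settings without a floor, 0 with the median over probe sets and 7 at 1.5-fold. Apart from the settings without a floor, where fewer values are removed, and the 1.5-fold rule, the cause of each shift was not tested. Signal over background is the limit for 27 members, which lie under the floor, and for the 5 above it on 1 array only.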

Other observations

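Among clustered beta protocadherins, which resemble each other in sequence, PCDHB2 had 1302.3 on the silenced array and 1204.5 on the control array. A cross-hybridising probe set of PCDHB3 had 454.3 on the silenced array and 196.1 on the control array, a log2 ratio of 1.21, while the PCDHB3 probe set that stands for the gene was below both floors. A cross-hybridising probe set of PCDHB13 had 291.8 on the silenced array and 264.1 on the control array, a log2 ratio of 0.14. These genes were singled out after their values were seen, and which gene of the cluster such cross-hybridising probe sets read cannot be told apart.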
